A study of Mus musculus with 8 samples.

Results

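Sites of open chromatin that recurred only with tetracycline were followed here: regions listed as DNase I hotspots in 2 or more of the 4 libraries kept with tetracycline and in none of the 4 libraries without it. There were 1862 such sites among the 99999 obtained by joining the hotspots of all 8 lists where they shared 1 bp or more. They made up 1.86% of all sites and 5.02% of the 37067 sites that 2 or more lists with tetracycline held. The members were chosen by these lists, and so by the peak densities that put a hotspot on a list, and their presence with and absence without tetracycline is a description that carries no test. A hotspot is a region enriched in DNase I cuts, and each list begins at its own lowest peak density, so a site missing from a list may still have had cuts below that density. The sites are therefore listed, not shown to be open, only with tetracycline.

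The libraries came from 3134 cells, a mouse mammary epithelial line. The groups without tetracycline were DNBrg1, DNCHD4 and DNSnf2h cells and parental 3134 cells held without it for 48 hours, and they were set against the same 4 lines held with it. In the dominant-negative lines, tetracycline represses a transgene for an impaired remodeler ATPase, and its removal switches the transgene on. The Snf2h transgene is a FLAG-tagged human protein with a lysine-to-arginine change, the Chd4 transgene is a triple FLAG-tagged mouse protein with a lysine-to-cysteine change, and both were put by retroviral vector into a 3134 line that carries the tetracycline transactivator. The Brg1 construct is named in the labels without further description. All 8 groups were grown in medium with charcoal-dextran treated serum. With 1 library for each group, nothing below could be checked on replicates, and p-values are left out. The 4 lists that hold the members thus come from cells in which the transgenes were kept repressed or, in parental cells, are not present.

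Brg1 is an ATPase of SWI/SNF complexes, which slide and evict nucleosomes at enhancers and promoters. Chd4 is the ATPase of the NuRD complex, which joins nucleosome remodeling to histone deacetylation. Snf2h is the ATPase of ISWI complexes, which space nucleosomes into regular arrays. DNase I cuts DNA where nucleosomes have been displaced, so its hotspots mark enhancers, promoters and other sites where such complexes and transcription factors act.

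The lists held 24890 to 78093 hotspots, and the lowest peak density was 9.19 without and 16.4 with tetracycline in DNBrg1 cells. It was 5.09 without and 8.05 with in DNCHD4 cells, 8.06 and 8.03 in DNSnf2h cells, and 10.04 and 13.0 in parental cells, in the same order. All peak densities of a library were whole multiples of the density of 1 tag, so the lowest hotspot of a list stood for 26 to 45 tags. The lists without tetracycline thus reached lower densities than those with it in every line but DNSnf2h, where both began at nearly the same density. The DNCHD4 list without tetracycline was the longest, with 78093 hotspots, and any of them that touched a site removed it from the members.

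Nearly every member was a hotspot of DNCHD4 cells with tetracycline, and most were hotspots of parental cells as well. The DNCHD4 list with tetracycline held 1843 of the 1862 members, which is 98.98% (95% Wilson interval 98.4 to 99.3). The DNBrg1 list held 423, or 22.7% (20.9 to 24.7), and the DNSnf2h list 891, or 47.9% (45.6 to 50.1). The parental list with tetracycline contributed to 1112 members, or 59.7% (57.5 to 61.9). These intervals cover counting error only. Among the 35205 sites in 2 or more lists with tetracycline and at least 1 without, the shares were 75.6% for DNBrg1, 99.7% for DNCHD4, 59.0% for DNSnf2h and 92.4% for parental cells. Members were in fewer lists than those other sites, so the shares were also set side by side at an equal number of lists. Of the 1390 members in 2 lists, 14.7% were in the DNBrg1 list, 98.6% in DNCHD4, 38.1% in DNSnf2h and 48.5% in parental cells. Of the 6966 other sites in 2 lists, 20.4% were in the DNBrg1 list, 98.6% in DNCHD4, 15.96% in DNSnf2h and 65.0% in parental cells. In 3 lists the DNSnf2h list held 72.2% of members and 27.8% of the 11853 other sites, and the DNBrg1 list 36.3% and 74.2%. At an equal number of lists, members were thus listed more often than the other sites in DNSnf2h cells and less often in DNBrg1 and parental cells.

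Most members were shared by a pair of lines. Of the 1862, 1390 (74.7%) were in 2 lists, 399 (21.4%) in 3 and 73 (3.92%) in all 4. The share of sites that had no hotspot without tetracycline fell with the number of lists: it was 16.6% of the 8356 sites in 2 lists with tetracycline, 3.26% of the 12252 in 3 lists and 0.444% of the 16459 in all 4. The most frequent pair was DNCHD4 and parental cells, with 658 members or 35.3% of them. The pair of DNCHD4 and DNSnf2h followed with 522 members, and the pair of DNBrg1 and DNCHD4 with 191. Of the triples, DNCHD4, DNSnf2h and parental cells shared 254 members, DNBrg1, DNCHD4 and parental cells 111, and DNBrg1, DNCHD4 and DNSnf2h 34. The pairs that leave out DNCHD4 held 19 members between them: 11 for DNBrg1 and parental cells, 5 for DNSnf2h and parental cells, and 3 for DNBrg1 and DNSnf2h. No member had the triple of DNBrg1, DNSnf2h and parental cells, which 3 sites had in all.

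The count of a combination followed in part how common that combination was. DNCHD4 and DNSnf2h alone shared 1611 sites with tetracycline, of which 32.4% were members. DNCHD4 and parental cells alone shared 5104, of which 12.9% were members, and DNBrg1 and DNCHD4 alone shared 1527, of which 12.5% were. Sites held by the DNCHD4 and DNSnf2h lists but by neither the parental nor the DNBrg1 list with tetracycline were therefore unlisted without tetracycline more often than the other common pairs. This was not particular to the lists with tetracycline. Without it, the same pair alone shared 1206 sites, of which 494 (41.0%) were in no list with tetracycline. That share was 13.4% for DNCHD4 and parental cells and 34.2% for DNBrg1 and DNCHD4.

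The mirrored rule, 2 or more lists without tetracycline and none with, gave 3040 sites, or 3.04% of all sites and 8.01% of the 37951 sites in 2 or more lists without tetracycline. Its make-up differed. DNBrg1 and DNCHD4 alone shared 191 members but 1163 mirror sites, which is 10.3% of members and 38.3% of mirror sites. DNCHD4 and parental cells shared 658 members and 804 mirror sites. DNBrg1 listed 22.7% of members and 51.9% of mirror sites, DNSnf2h 47.9% and 27.3%, and parental cells 59.7% and 42.0%. The sites in all 4 lists of a state were about equally many, 73 members and 65 mirror sites.

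**Figure D1:**
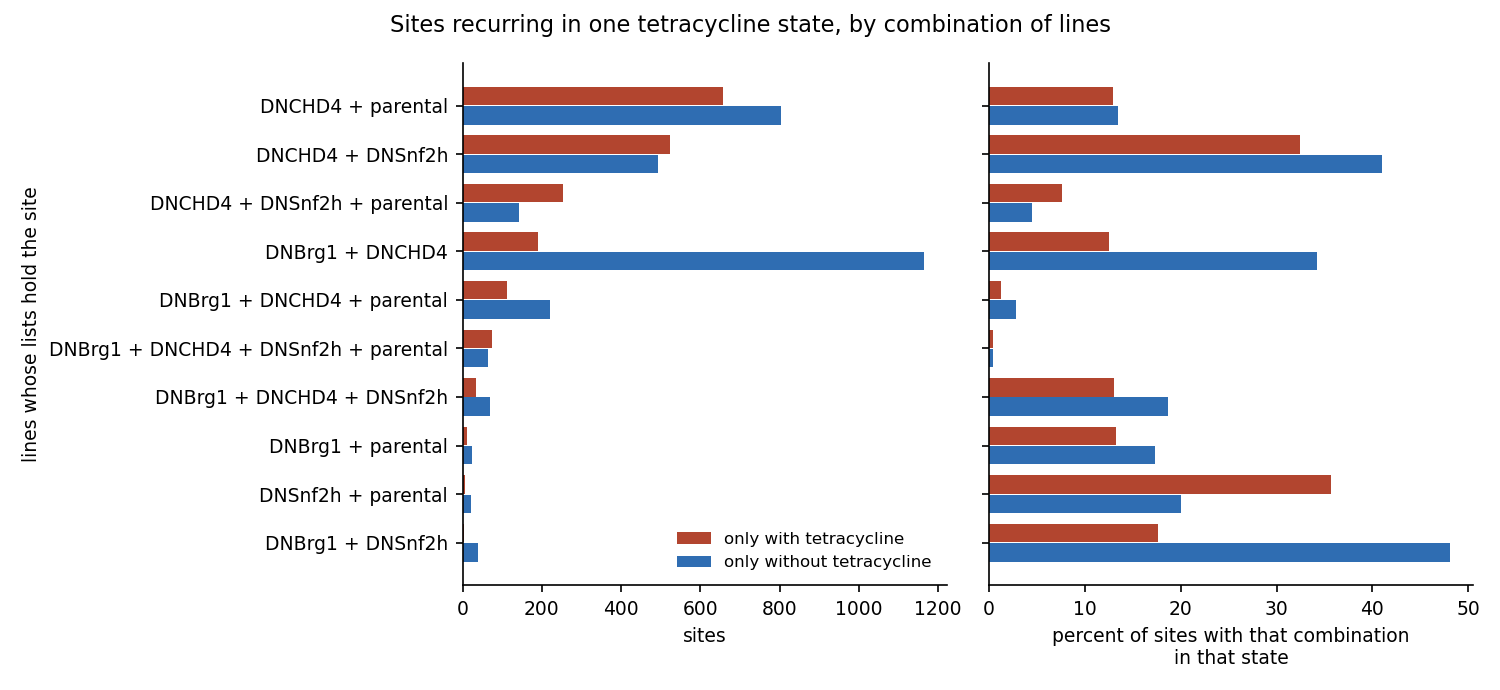
Sites listed in 2 or more libraries of one tetracycline state and in none of the other, by the lines whose lists hold them (left, number of sites; right, as a percent of all sites with that combination of lists in the same state). Red bars are sites only with tetracycline and blue bars sites only without; DNCHD4 with parental cells is the largest red group (658) and DNBrg1 with DNCHD4 the largest blue group (1163).

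The members were weak hotspots. In the DNBrg1 list with tetracycline their peak density had a median of 20.5 (lowest 16.4, highest 70.3), against 38.1 over the whole list. In DNCHD4 cells the median was 14.7 (8.05 to 58.5), against 22.6 over the list, and in DNSnf2h cells 10.5 (8.03 to 29.7), against 14.6. Parental members had a median of 16.1 (13.0 to 58.3), against 32.6 over the list. The median member thus stood above 14.2% of the hotspots of its list in DNBrg1 cells, 31.0% in DNCHD4, 25.0% in DNSnf2h and 13.6% in parental cells. In tags, the medians were 35 in DNBrg1, 82 in DNCHD4, 56 in DNSnf2h and 52 in parental cells.

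Most members lay close to the threshold of their lists. In DNBrg1 cells 74.2% of members were under 1.5 times the lowest density of the list, in DNSnf2h cells 69.7% and in parental cells 75.7%, but in DNCHD4 cells 27.8%. Members at 2 or more times the lowest density numbered 29 in DNBrg1, 737 in DNCHD4, 75 in DNSnf2h and 67 in parental cells. These are 6.86%, 40.0%, 8.42% and 6.03% of the members listed, so the DNCHD4 list held most of the members that stood clear of their threshold by that margin. A score was given to each member, the second highest of its ratios of density to the lowest density of the list, and its median was 1.26, against 2.61 for the other sites in 2 or more lists with tetracycline. It was at least 2 for 131 members (7.04%) and for 62.3% of those other sites. The mirror sites had a median score of 1.22, close to that of the members.

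**Figure D2:**
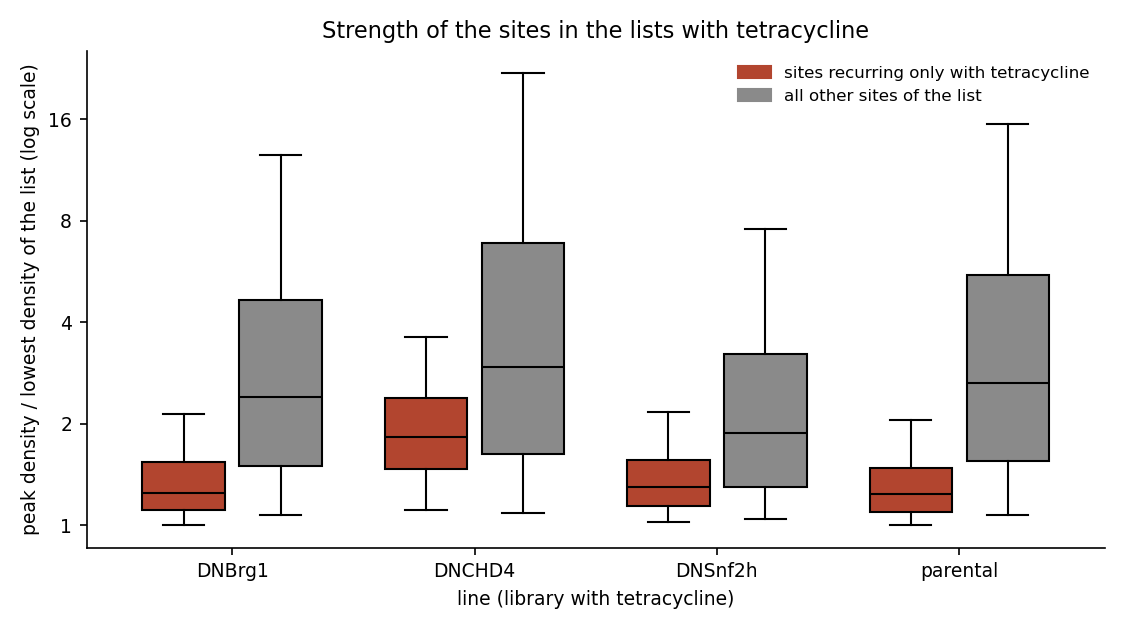
Peak density divided by the lowest density of the list (log scale) in the 4 libraries with tetracycline, for the sites recurring only with tetracycline (red) and for all other sites of the list (grey). Lines in the boxes are medians, boxes span the middle 50% and whiskers the 5th to 95th percentiles over sites; the red medians lie at 1.25, 1.82, 1.30 and 1.24, each below its grey neighbour.

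Members in 3 or 4 lists had higher median densities than members in 2. The lists are cut on this same density, and the other sites were not measured by number of lists. The order is therefore not read as a trait of the members. In DNCHD4 cells the median density with tetracycline was 13.6 over members in 2 lists, 19.1 in 3 and 22.4 in all 4. In DNSnf2h cells the medians were 9.90, 11.4 and 12.1, and in parental cells 15.5, 16.7 and 19.2. DNBrg1 medians were 19.9, 21.7 and 21.1, so density there was no higher in 4 lists than in 3. The rank order of densities was loosely shared between libraries with tetracycline: Spearman's rho was 0.56 between DNCHD4 and parental cells over 1096 members in both, 0.46 between DNCHD4 and DNSnf2h over 883, and 0.26 between DNBrg1 and DNCHD4 over 409. These coefficients describe sites that share their libraries and their cutoffs. Over the other sites in 2 or more lists with tetracycline they were 0.94, 0.74 and 0.83.

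How much lower the density was without tetracycline can be given only as a bound, the lowest density of the line's list without tetracycline over the density with it. Across DNCHD4 members the median bound was a log2 ratio of -1.53, or at least 2.88-fold lower. It was -1.16 in DNBrg1, -0.38 in DNSnf2h and -0.68 in parental cells. The bound passed 2-fold for 1608 of 1843 members in DNCHD4 cells (87.2%). It did so for 303 of 423 in DNBrg1 (71.6%), 69 of 891 in DNSnf2h (7.74%) and 236 of 1112 in parental cells (21.2%). The rule chose members from these same lists, and the background stands beside these shares without being read against them: of all sites listed in a line with and not without tetracycline, 67.8% passed in DNCHD4, 78.6% in DNBrg1, 10.3% in DNSnf2h and 24.3% in parental cells. Over all sites of a line, whether listed in 1 or both libraries, the shares lower by 2-fold or more were 9.66%, 29.6%, 4.68% and 9.71%.

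Part of each bound was set by the lists alone. The lowest density with tetracycline was already 1.79 times the lowest without it in DNBrg1 cells and 1.58 times in DNCHD4 cells, so every member listed there exceeded a 1.5-fold bound. The factor was 0.996 in DNSnf2h cells and 1.30 in parental cells. In DNSnf2h cells 30 members had a density with tetracycline under the lowest density listed without it, so no fall is shown for them. The lower limit of the exact 95% Poisson interval on a member's tags lay above the lowest density without tetracycline for all 423 members of DNBrg1 and all 1843 of DNCHD4, for 437 (49.05%) of DNSnf2h and for 923 (83.0%) of parental cells. In DNBrg1 and DNCHD4 cells this was fixed by the cutoffs, because members at the lowest tags of those lists, 28 and 45, already passed. It therefore says nothing further about the members there. In DNSnf2h and parental cells the shares rest on the same peak densities that put the members on the lists. The share over all hotspots of those lists was not measured, so these shares are not read as a result about the members either. At sites listed in both libraries of a line, the median log2 of density without over density with tetracycline was -0.64 in DNBrg1, 0.03 in DNCHD4, -0.02 in DNSnf2h and -0.40 in parental cells. With this median set to 0, the bound passed 2-fold for 58, 1634, 64 and 60 members in the same order. With the lowest hotspot within 50 kb in the list without tetracycline as the floor, 377 members of DNCHD4, 75 of DNBrg1, 15 of DNSnf2h and 38 of parental cells passed. A member with no hotspot within 50 kb in that list was counted as not passing. Of all 1862 members, 220 had none in the DNBrg1 list, 13 in DNCHD4, 167 in DNSnf2h and 159 in parental cells.

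Larger bounds came mostly from DNCHD4 cells, whose list without tetracycline began at the lowest density of all, 5.09. There the bound reached 3-fold in 832 members, 4-fold in 376 and 5-fold in 170. In DNBrg1 the numbers were 67, 15 and 4, in parental cells 33, 5 and 2, and in DNSnf2h it reached 3-fold in 6 members and 4-fold in 0. A bound of 2-fold or more held in no line for 209 members and in 1 line for 1166. It held in 2 lines for 418, in 3 lines for 62 and in all 4 lines for 7. Shares over all sites were not measured for these larger folds or for the number of lines. The counts are therefore not read as a trait of the members. With the lowest hotspot within 50 kb as the floor, 377 of 1843 DNCHD4 members passed 2-fold.

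The site with the highest score lay on chromosome 10 from 79640054 to 79640696 (mm9 coordinates as deposited, as throughout). No library without tetracycline listed it, and with tetracycline its density was 48.6 in DNBrg1, 50.8 in DNCHD4, 15.1 in DNSnf2h and 58.3 in parental cells, from 83, 284, 81 and 188 tags. It was at least 5.29-fold lower without tetracycline in DNBrg1, 9.98-fold in DNCHD4, 1.88-fold in DNSnf2h and 5.80-fold in parental cells. It stood in a region rich in hotspots, with 10, 16, 12 and 13 listed within 50 kb in the DNBrg1, DNCHD4, DNSnf2h and parental libraries without tetracycline. The lowest of these had densities of 32.4, 27.8, 16.5 and 29.1, so a fall measured against the local values would be under 2-fold in DNBrg1 and DNCHD4, close to 2-fold in parental cells and not shown in DNSnf2h.

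A second site in all 4 lists, on chromosome 17 from 87674591 to 87675271, was listed at 1.39 times the lowest density of the list in DNBrg1 cells and at 2.51 times or more in the other lines. With tetracycline it had densities of 22.8 in DNBrg1, 41.9 in DNCHD4, 20.2 in DNSnf2h and 38.1 in parental cells. No library without tetracycline listed it, which is at least 2.49-fold, 8.22-fold, 2.50-fold and 3.80-fold lower in the same order. Against the lowest hotspot within 50 kb without tetracycline the factors were 1.66, 3.50, 1.61 and 2.69, so 2-fold was passed in DNCHD4 and parental cells only. The nearest hotspot without tetracycline was 5865 bp away. The site on chromosome 3 from 102065138 to 102066007 had 18.7 in DNBrg1, 54.03 in DNCHD4, 18.9 in DNSnf2h and 36.6 in parental cells with tetracycline. The DNBrg1 value was 1.14 times the lowest of that list. Against the lowest hotspot within 50 kb the factors were 1.99, 4.93, 1.53 and 3.38 in the same order. Its bound in DNCHD4 cells, at least 10.6-fold, was the highest of these sites.

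These 2 sites belong to the 7 members with a 2-fold bound in all 4 lines. With the lowest hotspot within 50 kb as the floor, 0 of the 7 passed 2-fold in all 4 lines. Another, on chromosome 18 from 5931619 to 5933088, was the widest member of all at 1470 bp and had 19.3, 30.1, 18.7 and 41.5 in DNBrg1, DNCHD4, DNSnf2h and parental cells with tetracycline. It had no hotspot within 50 kb in the DNBrg1 and DNSnf2h lists without tetracycline, so it could not pass by the 50 kb floor there. The numbering of at least 1 list without tetracycline lacks a number at its position, so a hotspot there may have been numbered and then left out. The other 4 were singled out after their values were seen. They lie on chromosome 2 from 75460138 to 75460869, on chromosome 16 from 21323524 to 21324256, on chromosome 1 from 82808129 to 82808874 and on chromosome 7 from 96795871 to 96796485. Their densities with tetracycline were 20.5 to 32.8 in DNBrg1, 22.5 to 53.5 in DNCHD4, 17.2 to 19.4 in DNSnf2h and 22.01 to 32.9 in parental cells. The chromosome 16 site had a hotspot without tetracycline only 337 bp away, and for the other 3 it was 4182 to 8449 bp away. By the 50 kb floor, 2-fold was passed in 3 lines on chromosome 2, 2 on chromosome 1, 1 on chromosome 16 and 0 on chromosome 7. The chromosome 7 factors were 0.77, 0.53, 1.11 and 0.76 in DNBrg1, DNCHD4, DNSnf2h and parental cells. By that floor no fall is shown there in DNBrg1, DNCHD4 or parental cells.

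Other members in all 4 lists had a 2-fold bound in fewer lines. On chromosome 17 from 35674291 to 35674929 the densities with tetracycline were 29.3 in DNBrg1, 37.2 in DNCHD4, 15.1 in DNSnf2h and 38.1 in parental cells. The site on chromosome 16 from 13250051 to 13250842 had 30.5, 39.4, 14.2 and 36.9 in the same order. By the bound, both were at least 3.19-fold lower without tetracycline in DNBrg1 cells, but a 2-fold difference was not shown in DNSnf2h. On chromosome 6 from 146068523 to 146069276 the densities were 18.2, 37.7, 20.4 and 36.9, and on chromosome 15 from 3537689 to 3538453 they were 16.4, 25.6, 21.3 and 24.8. The chromosome 15 site had the lowest density that the DNBrg1 list holds. The remaining 2 of the 10 highest-scoring sites in all 4 lists were on chromosome 2 from 44832523 to 44833618, at 17.6, 31.3, 20.9 and 16.1, and on chromosome 1 from 92060768 to 92061413, at 17.6, 31.5, 13.6 and 32.9. In all 10 sites the DNCHD4 density was at least 5.02 times the lowest density of the whole DNCHD4 list without tetracycline. Over the lowest hotspot within 50 kb in that list, the factor was 1.83 on chromosome 10 and 1.81 on chromosome 18. It was 1.57 at the chromosome 2 site and 3.03 to 4.93 at the other sites. By that local floor, 0 of the 10 passed 2-fold in all 4 lines.

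**Figure D3:**
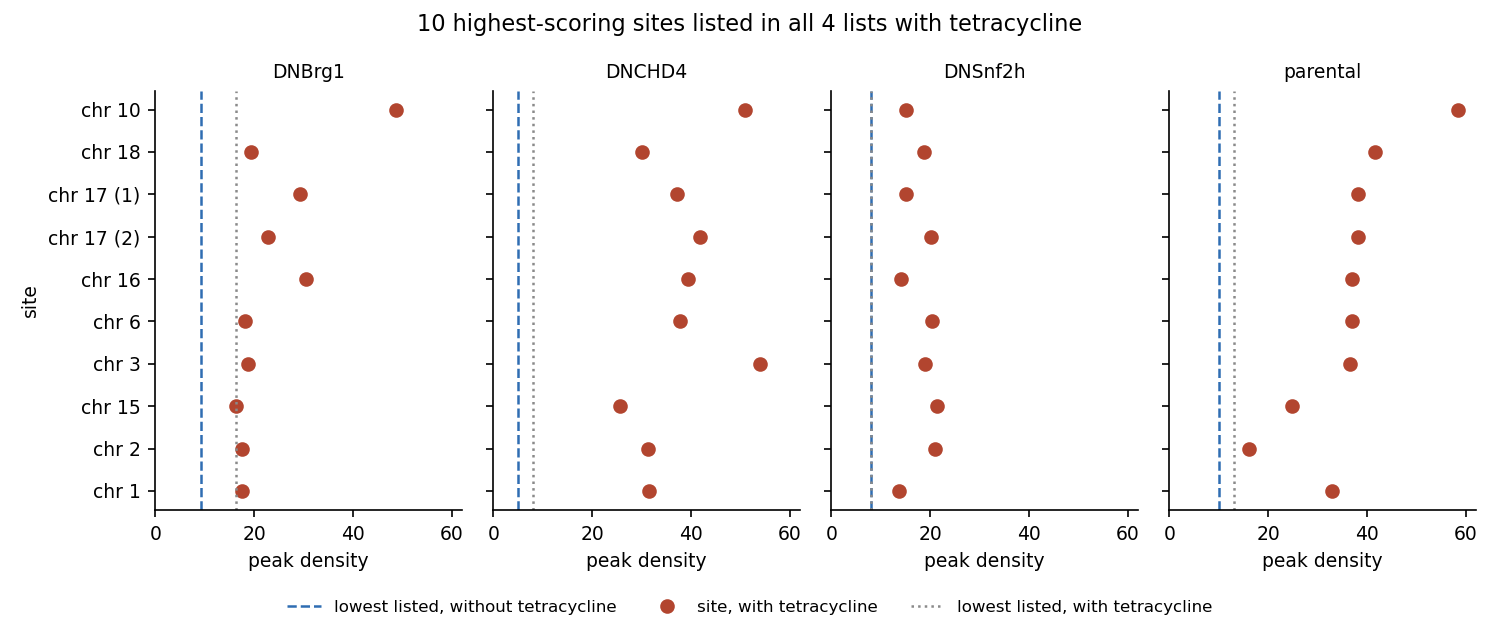
Peak density with tetracycline (red points) of the 10 highest-scoring sites found in all 4 lists with tetracycline, named by chromosome, in each line. The dashed line is the lowest density of that line's whole list without tetracycline and the dotted line the lowest listed with it. Points in DNCHD4 lie from 25.6 to 54.03, far above both lines, while several DNBrg1 points sit at or near the dotted line. The lowest hotspots within 50 kb, which can be denser than the dashed line, are not drawn.

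Members that DNBrg1 cells did not list included some of the strongest. On chromosome 1 from 166739304 to 166740136 the densities with tetracycline were 35.96 in DNCHD4, 29.7 in DNSnf2h and 15.2 in parental cells. The site on chromosome 3 from 107510025 to 107510738 had 30.4, 29.7 and 33.5. These shared the highest DNSnf2h density among members, which was 3.68 times the lowest density of the DNSnf2h list without tetracycline. The lowest hotspots within 50 kb of the chromosome 3 site were 19.8, 14.9 and 19.1, so a fall against these would be under 2-fold in each line. Near the chromosome 1 site they were 8.03, 9.88 and 11.1, so 2-fold would be passed in DNCHD4 and DNSnf2h but not in parental cells. For the chromosome 3 site a hotspot without tetracycline began 331 bp away, and for the chromosome 1 site at least 1 list without tetracycline has a number missing. On chromosome 8 from 130726196 to 130726899, also with a number missing, the densities were 41.5, 24.5 and 32.9. Sites on chromosome 5 from 152054112 to 152054784 (35.6, 26.3 and 19.8) and on chromosome 1 from 155051105 to 155051758 (25.8, 23.3 and 20.8) had no number missing and hotspots without tetracycline 10261 and 1192 bp away. On chromosome 1 from 90452871 to 90453643 the densities were 46.9 in DNCHD4, 10.6 in DNSnf2h and 40.6 in parental cells.

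Members that DNSnf2h cells did not list were led by a site on chromosome 17 from 46010285 to 46011008. It had 31.6 in DNBrg1, 45.1 in DNCHD4 and 54.6 in parental cells with tetracycline. By the bound it was at least 3.44-fold, 8.85-fold and 5.43-fold lower without it. A hotspot without tetracycline lay 631 bp away. The lowest within 50 kb were 11.5, 12.5 and 14.4 in the same order, and a fall against these would still pass 2-fold. A site on chromosome 11 from 102917830 to 102918469 had 29.9, 33.5 and 42.5. Its lowest hotspots within 50 kb without tetracycline were 19.6, 20.2 and 23.4, so a fall against these would be under 2-fold in each line. The parental library gave the highest density of the 3 at both.

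Among members of a single pair, the 2 highest-scoring of each pair were examined. For DNCHD4 and parental cells these were on chromosome 10 from 84908578 to 84909291, at 28.4 and 34.1, and on chromosome 6 from 114894363 to 114894974, at 39.2 and 32.2. For DNCHD4 and DNSnf2h they were on chromosome 7 from 109002257 to 109002945, at 23.1 and 24.5, and on chromosome 1 from 71966358 to 71967005, at 22.9 and 27.6. At those 2 sites the DNSnf2h density exceeded the DNCHD4 density. The median log2 of DNCHD4 over DNSnf2h density was 0.44 over the 883 members in both lists, and 1.67 over the other sites in 2 or more lists with tetracycline. For DNBrg1 and DNCHD4 they were on chromosome 7 from 52209780 to 52210310, at 44.5 and 20.6, and on chromosome 2 from 167676999 to 167677546, at 36.9 and 18.8. The DNBrg1 density was the higher at both, as it was over most of the 409 members in both lists, where the median log2 of DNBrg1 over DNCHD4 density was 0.50 and the DNBrg1 list began at 16.4, against 8.05 for the DNCHD4 list. The densest member of DNBrg1 cells, on chromosome 4 from 31855014 to 31855717, had 70.3 in DNBrg1, 17.5 in DNCHD4 and 15.3 in DNSnf2h and was not in the parental list. It was at least 7.65-fold lower without tetracycline in DNBrg1, and at least 1 list without tetracycline has a number missing at its position.

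The pairs without DNCHD4 had lower scores, at most 1.81. DNBrg1 and parental cells shared a site on chromosome 13 from 23618242 to 23618707, at 32.8 and 23.6, and one on chromosome 1 from 137607636 to 137608179, at 35.7 and 20.2. DNBrg1 and DNSnf2h shared sites on chromosome 4 from 146795831 to 146796474 (21.7 and 14.01) and on chromosome 7 from 103319919 to 103320522 (24.6 and 9.90). The best site of DNSnf2h and parental cells, on chromosome 11 from 116620329 to 116620591, had 10.3 and 15.5, and at 263 bp it was the narrowest member. The chromosome 13 site lies in a dense stretch, with 15 to 21 hotspots within 50 kb in each list without tetracycline.

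The edge of the rule ran through sites of similar strength. The lowest possible score, 1, was shared by 98 members. As examples, 3 of them on chromosome 9, the last in the order of chromosome names, started at 71661517 (19.3 in DNCHD4 and 13.0 in parental cells), at 88414646 (8.41 in DNCHD4 and 8.03 in DNSnf2h) and at 110619225 (11.3 in DNCHD4 and 13.0 in parental cells). Just outside, 3756 sites were in 2 or more lists with and exactly 1 list without tetracycline. That list was DNCHD4 for 83.0% of them, parental for 7.51%, DNSnf2h for 4.90% and DNBrg1 for 4.63%. In DNCHD4 cells 3094 of these sites were listed in both states, with median densities of 13.6 without and 15.7 with tetracycline. The log2 of their ratio had a median of -0.23, and 14.2% were lower by 2-fold or more. The strongest, on chromosome 7 from 152503292 to 152504015, was listed without tetracycline only by the parental library, at 37.6, against 67.3 with it. Next came one on chromosome 11 from 86504757 to 86505557, listed without tetracycline only in DNSnf2h cells, at 9.47 against 34.9 with it, and one on chromosome 12 from 9098451 to 9099403, only in DNCHD4 cells, at 16.3 against 75.7.

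A further 6317 sites were in 1 list with tetracycline and in none without, 63.5% of them in DNCHD4, 29.5% in DNSnf2h, 5.26% in DNBrg1 and 1.73% in parental cells. The strongest were on chromosome 11 from 3039957 to 3040241, at 49.9 in DNCHD4 cells, on chromosome 15 from 85443756 to 85444465, at 74.4 in DNBrg1 cells, and on chromosome 2 from 30483785 to 30484471, at 32.7 in DNCHD4 cells. The chromosome 11 site sits among 34 to 44 hotspots within 50 kb in each list without tetracycline, none below 40.5, so its absence from those lists shows little.

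The median member was narrower than the other sites. Joined over lists they had a median width of 607 bp (middle 50% 554 to 661), against 810 bp (685 to 1083) for the other sites in 2 or more lists with tetracycline. Within a list, hotspots in the middle range of member density were compared. There the median widths were 582 bp for members and 587 bp for others in DNCHD4, 478 and 517 bp in DNBrg1, 472 and 493 bp in DNSnf2h, and 532 and 554 bp in parental cells. The authors' z-score of enrichment had medians of 15.9 for members and 17.8 for others in DNCHD4, 12.9 and 15.8 in DNBrg1, 12.6 and 13.3 in DNSnf2h, and 12.9 and 15.5 in parental cells. At like peak density, members thus had slightly lower z-scores and slightly smaller median widths in all 4 lists. Hotspots of 1 list are not replicates, and these differences were not tested.

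Members lay amid other open sites. The nearest hotspot of any library without tetracycline was a median of 3999 bp away (middle 50% 1267 to 9440). It was within 500 bp for 214 members (11.5%), within 5000 bp for 1065 (57.2%) and within 50 kb for all but 7. The mirror sites were farther from hotspots with tetracycline, at a median of 12876 bp. These distances have unlike targets, because the lists differ in length and the DNCHD4 list without tetracycline alone held 78093 hotspots. To single lists without tetracycline, the members' medians were 11610.5 bp for DNBrg1, 4576 for DNCHD4, 10345 for DNSnf2h and 7935 for parental cells. Whether list length set the contrast with the mirror sites was not tested. Within 50 kb the DNCHD4 list without tetracycline held a median of 6 hotspots and the parental list 4, and the DNBrg1 and DNSnf2h lists held 3 each. In 68 members a hotspot without tetracycline lay within 150 bp, and those sites may be edges of a hotspot listed in both states.

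The neighbours of the members were measured too, since the rule did not use them. For each member listed in a line, the nearest other site within 10 kb that both libraries of the line listed was taken. In DNBrg1 cells the log2 ratio without over with tetracycline at these neighbours had a median of -0.89 over 196 members, against -0.68 for the neighbours of the other sites in 2 or more lists with tetracycline. In DNCHD4 cells the medians were -0.13 over 1173 members and -0.00057 for the others, and in DNSnf2h cells -0.24 over 330 and -0.09. In parental cells they were -0.48 over 657 members and -0.41 for the others.

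Relative to the median of all sites shared between the libraries of a line, the neighbours of members stood at -0.24 in DNBrg1, -0.17 in DNCHD4, -0.22 in DNSnf2h and -0.08 in parental cells. The neighbours of the mirror sites stood at 0.10, 0.16, 0.09 and 0.09. In every line the members' neighbours were thus lower and the mirror sites' neighbours higher than the median shared site, and the members' shift was the smallest in parental cells. The middle 50% of each group spanned more than these shifts and overlapped the others. Before the shared-site median of -0.64 was subtracted, the DNBrg1 members' neighbours ran from -1.27 to -0.47 around a median of -0.89. Within 50 kb the same order held, at -0.19, -0.15, -0.17 and -0.03 for members. Neighbours share libraries with the members and are not replicates, and no test was made.

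**Figure D4:**
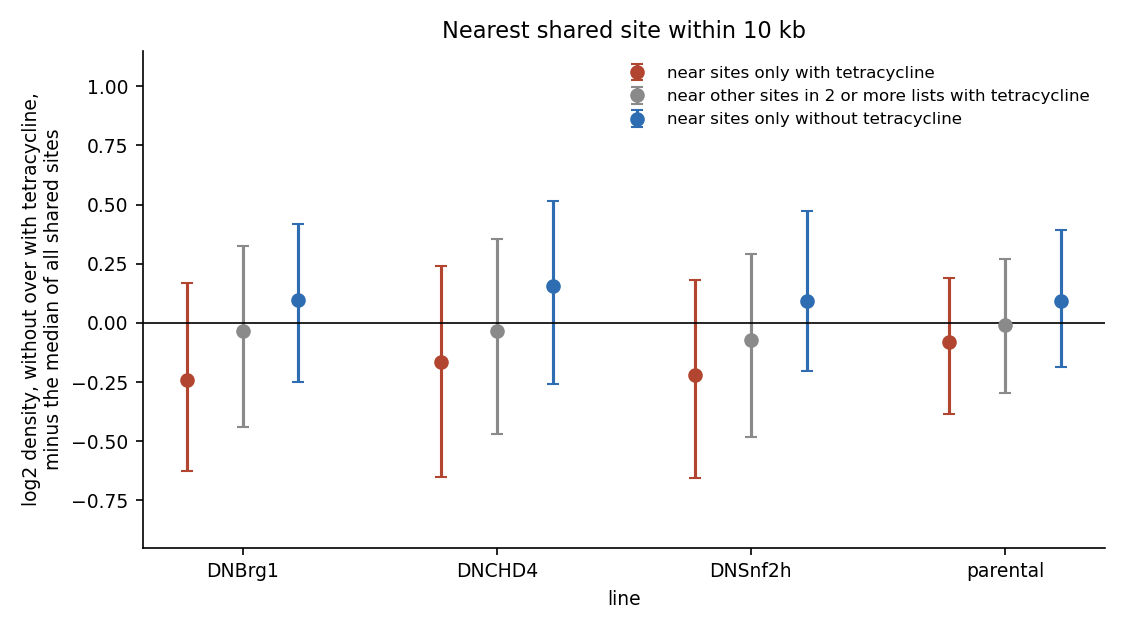
Log2 density without over with tetracycline at the nearest site within 10 kb that both libraries of a line list, minus the median of all such shared sites of the line. Points are medians and bars the middle 50% over sites; red points (near sites only with tetracycline) lie at -0.24, -0.17, -0.22 and -0.08 and blue points (near sites only without) above 0 in every line, with overlapping bars.

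Members were spread over the genome. On the autosomes, 4.29% to 5.90% of the sites in 2 or more lists with tetracycline were members. Chromosome X had 10 members among 711 such sites, or 1.41%, whereas its mirror sites were 70 of 771, or 9.08%, within the autosomes' range of 5.75% to 10.05%. All 10 were in the DNCHD4 list with tetracycline, 8 in the DNSnf2h list, 5 in the parental list and none in the DNBrg1 list. Chromosome X held 1.59% to 2.21% of the hotspots of each list. The highest share was in the DNCHD4 list without tetracycline, against 1.93% in the DNCHD4 list with it. The cause of the low share of members on chromosome X was not tested. The DNBrg1 list with tetracycline held 2 of the 51 members on chromosome 18 (3.92%) and 7 of the 60 on chromosome 14 (11.7%), against 28 of 81 on chromosome 15 (34.6%). The share of all sites on these chromosomes that this list held was not measured, so these values are not read as a trait of the members. Neighbouring members were a median of 444676 bp apart, and 76 of 1842 neighbouring pairs were within 10 kb. There were 2 runs of 3 members with no other site between them, on chromosome 11 from 98592409 to 98609144 and on chromosome 3 from 90359850 to 90379637. The fullest windows of 1 Mb held 7 members each, on chromosome 16 from 23000000 and on chromosome 17 from 14000000, out of 36 and 43 sites in 2 or more lists with tetracycline.

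The number of members rested on the cutoffs and on the DNCHD4 libraries. Without the DNCHD4 list without tetracycline there were 5013 members and 590 mirror sites. Without the DNCHD4 list with tetracycline there were 500 members and 5935 mirror sites. With both DNCHD4 libraries left out, 1724 members and 1574 mirror sites remained by the same rule, but 492 of those 1724 overlapped a member counted here. Which state had more recurring sites therefore turned with the lists used.

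**Figure D5:**
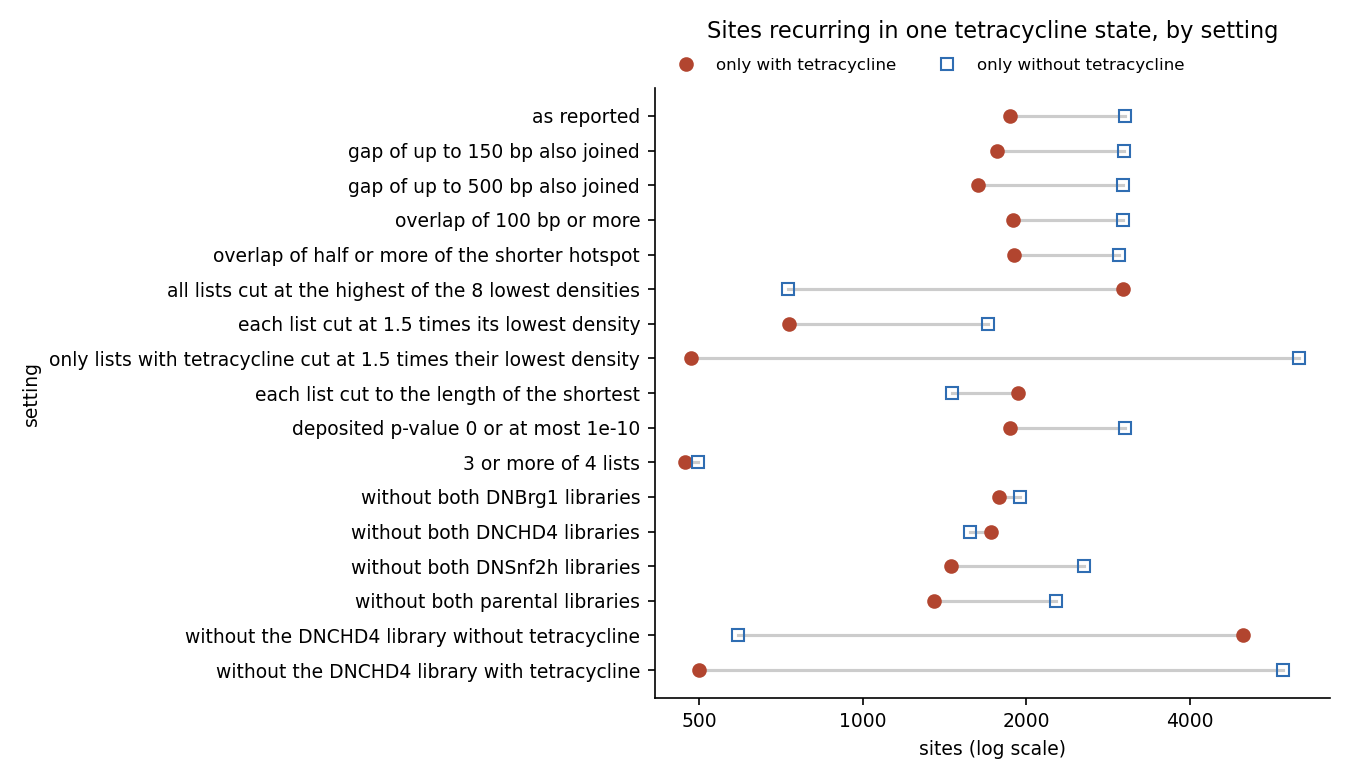
Number of sites recurring only with tetracycline (red circles) and only without it (blue squares) under each setting, on a log scale; grey lines join the counts of a setting. As reported they were 1862 and 3040; the red count ran from 472 (3 or more of 4 lists) to 5013 (without the DNCHD4 library without tetracycline), and it exceeded the blue count under 4 of 16 settings.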

How the data were processed

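DNase-seq was done on 8 libraries, 1 per group, grouped by the submitters' labels. CASAVA 1.6 and build mm9 are named in the submitters' processing notes, while the sources used here name neither the hotspot caller nor its filters. Every library has its own list of hotspots, as deposited. Peak and mean tag density are, per the file headers, a signal (coverage) whose scale differs by library, and the target of that scaling is not stated. The lists also hold the authors' z-score of enrichment, a score deposited per hotspot, and a deposited p-value, listed as 0 for 13.9% to 44.4% of a list.

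Hotspots of all 8 lists were joined where they shared 1 bp or more, and the peak density of a site in a library was the greatest among its hotspots. Tags were densities divided by the density of 1 tag, with 100% of values whole within 0.05. Total depth is unknown. A fold against a list that lacks the site used that list's lowest density and is a bound that assumes any denser site would be listed. Hotspot numbers follow genome order but skip some values, so some hotspots may have been numbered and then left out. At the members' positions no number was missing in 86.7%, 98.0%, 85.0% and 78.4% of cases in the DNBrg1, DNCHD4, DNSnf2h and parental lists without tetracycline, against 90.5%, 95.8%, 85.7% and 87.7% of all intervals between hotspots. It was missing in none of the 4 for 1270 members.

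Sites were named by rule: the 10 highest-scoring members in all 4 lists, the 12 highest-scoring of all, the 2 highest of each combination of lines, 3 of the lowest (98 tied), and the 3 strongest just outside on either side. The members, lists and tests were chosen with earlier results of these data known. No genome or annotation of mm9 was used, so sites are given without sequence or gene. Alternatives covered the overlap, the density cutoff, list length, number of lists and libraries left out. Joining and the rule were tested on the real lists, with the hotspots without tetracycline deleted at sites drawn at random. Joining was also compared with that of bedtools. Scripts ran in Python 3.11.15 with pandas 2.3.3, numpy 2.4.6, scipy 1.17.1 and, for figures, matplotlib 3.10.9.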

Additional observations from a re-analysis of the deposited data

How the results depend on the processing

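No paired analysis was possible because the results come from no test: each line pairs a library without and a library with tetracycline, but the rule that chose the members used both libraries of all 4 lines. The number of members stayed within 1.5 times 1862 under 11 of 17 alternatives. Among them were every change of the overlap (1632 to 1895) and each line left out (1350 to 1779). This compares totals and not the sites that made them up. The deposited p-value cutoff, also among the 11, left every hotspot in place, so it tested nothing. In this order the values are members, mirror sites and the percent of members in the parental list with tetracycline. They were 3013, 730 and 84.1% with all lists cut at the highest of their lowest densities, 732, 1696 and 53.4% with each list cut at 1.5 times its lowest density, and 484, 6345 and 53.7% with only the lists with tetracycline so cut. They were 1927, 1460 and 63.7% with lists of equal length, and 472, 497 and 92.8% with 3 or more lists required. Leaving out both DNBrg1 libraries gave 1779, 1943 and 67.0%, both DNCHD4 libraries 1724, 1574 and 94.9%, and both DNSnf2h libraries 1450, 2554 and 83.7%. Leaving out the DNCHD4 library without tetracycline gave 5013, 590 and 69.3%, and the one with tetracycline, chosen after seeing the data, 500, 5935 and 92.4%. Of the 3013, 1927 and 1724 members, 508, 289 and 492 overlapped one of the 1862, so most were other sites. The totals of 1927 and 1724, though near 1862, thus do not show that the same sites were kept. Only members with no number missing, also chosen after seeing the data, numbered 1270, of which 65.4% were in the parental list. The cause of these shifts was not tested.

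The pair of DNCHD4 and parental cells had 1122 members at the common cutoff, 247 and 171 at the relative cutoffs, 205 with lists of equal length, 998 without DNSnf2h and 1865 without the DNCHD4 library without tetracycline. The pair of DNCHD4 and DNSnf2h had 59, 253 and 169 at those cutoffs, 863 without parental cells and 900 without that DNCHD4 library. With the median ratio of shared sites set to 0, the 2-fold bound held for 58 members in DNBrg1 and 60 in parental cells. With the lowest hotspot within 50 kb as the floor it held for 75 in DNBrg1, 377 in DNCHD4, 15 in DNSnf2h and 38 in parental cells. Members with no hotspot within 50 kb were counted there as not passing. At 1.5-fold it held for 270 in DNSnf2h and 709 in parental cells. By the mean density column, the median member stood 5.85, 7.82, 5.45 and 4.71 times above the lowest of the DNBrg1, DNCHD4, DNSnf2h and parental lists. That column was not the one the lists were cut on. Counts of 26 to 45 tags at the cutoffs limit what an absence can show.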
